A study of Mus musculus with 6 samples.

Results

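Collagen chains are the protein strands that wind together into the collagens of the extracellular matrix, and their transcripts were followed here across 3 groups of mouse hearts. Members were all probe sets of the array with 1 annotated symbol of the form Col, number, a, number. They gave 82 probe sets for 42 genes among the 18193 genes that the array represents, and of each gene the probe set that was brightest on average over the 6 arrays is described. By structure, 11 chains are fibrillar, 6 are basement membrane chains of type IV, and 25 belong to other collagens. Of the 42, 30 lay above the filter on dim probe sets and were tested, namely 8 fibrillar, 6 basement membrane and 16 other chains.

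Total RNA of heart tissue was hybridised to Affymetrix arrays, 2 for each group. In the first group apoE-deficient mice on a B6 background received rosiglitazone, an antidiabetic agonist of the nuclear receptor PPAR gamma, in a daily dose of 30 mg/kg that began at 6 months of age and lasted 2 months, and their hearts are labelled as failing. The second group held apoE-deficient mice left untreated, and the third untreated non-transgenic B6 mice. Every mouse was 8 months old at heart isolation and ate an Ain 93-based chow of 7% fat and 0.15% cholesterol. ApoE is an apolipoprotein of the particles that carry cholesterol. Sex and pooling are not labelled, nor whether different mice supplied the arrays of a group, so p-values cover array-to-array spread that may be technical. The failing state was recorded in the treated group alone, so it and the drug cannot be told apart.

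A collagen molecule is a helix wound from chains rich in glycine and proline. Type I and type III form the fibrils that give the heart wall its tensile strength, with type V at the fibril core, and cardiac fibroblasts are their main source. Type IV builds the sheet-like basement membrane around each cardiomyocyte and under the endothelium, while FACIT collagens sit on fibril surfaces and multiplexins lie between basement membrane and fibrils. Chains need hydroxylation and a dedicated chaperone inside the cell, and lysyl oxidases cross-link them outside it.

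Values are log2 levels of normalized signal plus a pseudocount of 11.1, on which changes of dim chains are understated. Differences are given ± SE from 1 limma fit over all 6 arrays, with Benjamini-Hochberg adjusted p-values over 27022 probe sets and a threshold of 0.05. The deposited signals were not on 1 scale: 2%-trimmed means were 263 to 341 on treated, 126 to 130 on untreated apoE-deficient and 149 to 175 on B6 arrays, so quantile normalization was applied. Apoe levels were 6.20 and 6.25 in treated and 5.24 and 6.29 in untreated apoE-deficient hearts, against 11.91 and 11.86 in B6 hearts, which matched the labels. All 10 cardiomyocyte markers lay above the filter. Of probe sets that passed, 50.5% were higher in treated than in untreated apoE-deficient hearts, 44.8% were higher in untreated apoE-deficient than in B6 hearts, and 49.6% were higher in treated than in B6 hearts. Scaling by hybridization control spots turned these shares into 79.6%, 81.0% and 92.5%, scaling by array medians into 64.7%, 25.7% and 45.8%, and no scaling into 99.9%, 4.72% and 99.7%. The hybridization controls moved the median difference of all probe sets to 0.18, 0.11 and 0.28 in the same order of comparisons, and no scaling moved it to 1.13, -0.32 and 0.81, so every change below is relative to the quantile-normalized arrays.

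Of 8 tested fibrillar chains 6, namely Col1a1, Col1a2, Col3a1, Col5a1, Col5a2 and Col27a1, were higher in the treated than in the untreated apoE-deficient hearts, and 4 fibrillar chains were lower in untreated apoE-deficient than in B6 hearts. Between treated and untreated apoE-deficient hearts 11 of 30 tested chains rose and 2 fell, where 11.4% of all 13236 tested genes rose and 12.3% fell. The risers were 6 of 8 fibrillar, 2 of 6 basement membrane and 3 of 16 other chains, and both chains that fell were among the others. Of the chains that fell, Col19a1 had a treated mean of 4.23, below the filter of 4.99. In untreated apoE-deficient against B6 hearts 1 chain was higher and 6 were lower, where 3.85% of genes were higher and 4.66% lower. The 6 were 4 fibrillar and 2 basement membrane chains. Between treated and B6 hearts 6 chains were higher and 3 lower, where 8.78% of genes were higher and 9.87% lower. The 6 higher chains were 2 fibrillar and 4 other ones, and the 3 lower were 1 fibrillar, 1 basement membrane and 1 other chain.

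The median difference of the 30 tested chains was 0.18 between treated and untreated apoE-deficient hearts, beside -0.034 for all tested genes. Fibrillar chains had a median of 0.44, basement membrane chains of 0.20 and other chains of 0.081 in that comparison. Between untreated apoE-deficient and B6 hearts the medians were -0.34 for fibrillar, -0.41 for basement membrane and 0.010 for other chains, beside 0.0006 for all genes. Scaling by array medians turned that value of the other chains to -0.045 and no scaling to -0.26. Between treated and B6 hearts they were 0.19, -0.17 and 0.078 in the same order, beside -0.027 for all genes, and the basement membrane value turned to 0.18 with scaling by hybridization controls and to 0.73 without scaling. Each pair of these 3 comparisons shares a group of arrays, so they are not independent of each other. In bulk tissue, more cells of a type and more RNA per cell cannot be told apart.

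**Figure D1:**
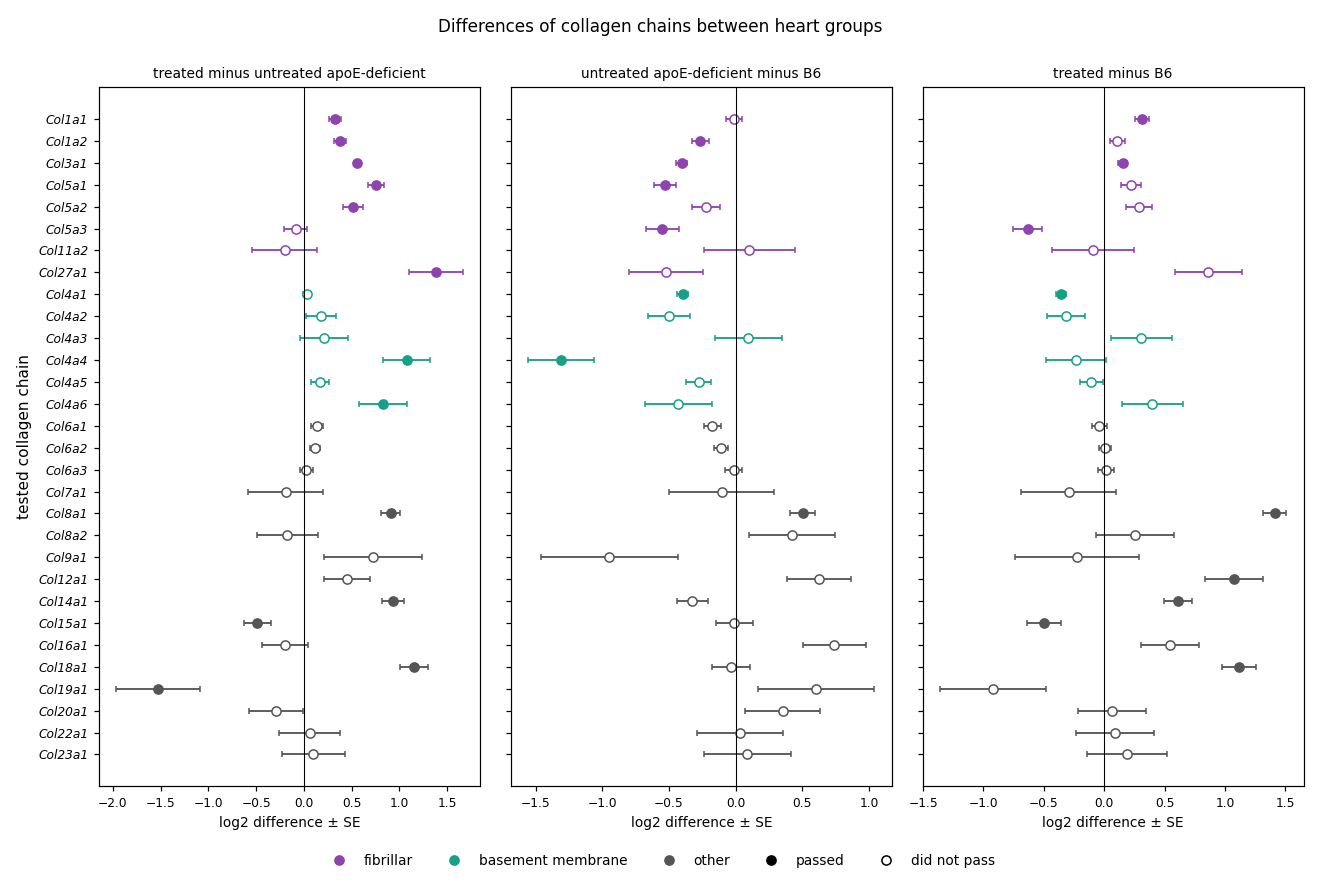
Log2 differences ± SE of the 30 tested collagen chains (rows) in 3 comparisons (panels), with filled points for chains that passed at an adjusted p under 0.05. Of the 8 fibrillar chains in purple, 6 lie right of 0 and passed for treated minus untreated apoE-deficient hearts, and 4 lie left of 0 and passed for untreated apoE-deficient minus B6 hearts.

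Col3a1, the only chain of type III collagen, had levels of 12.12 and 12.12 in treated, 11.57 and 11.55 in untreated apoE-deficient and 11.97 and 11.97 in B6 hearts. The arrays of each group lay close together and the groups did not overlap, with the treated hearts highest and the untreated apoE-deficient hearts lowest. Treated exceeded untreated apoE-deficient hearts 1.47-fold, a difference of 0.56 ± 0.038 (adjusted p = 2.3e-05). Untreated apoE-deficient hearts were lower than B6 hearts by a difference of -0.41 ± 0.038 (adjusted p = 0.000596). Treated hearts were slightly above B6 hearts, at 0.15 ± 0.038 (adjusted p = 0.0263), and that small call was lost when any 1 of the treated or B6 arrays was left out (0.15 each time) and with scaling by trimmed means (0.019) or array medians (0.017).

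The type I chains Col1a1 and Col1a2, which combine in the main tensile collagen of the heart, both rose with treatment. Col1a1 levels were 10.15 and 10.21 on treated, 9.87 and 9.83 on untreated apoE-deficient and 9.87 and 9.86 on B6 arrays. With this probe set the treated arrays lay above the other 4. The Col1a1 difference was 0.32 ± 0.06 (adjusted p = 0.00515) against untreated apoE-deficient and 0.31 ± 0.06 (adjusted p = 0.00808) against B6 hearts, while untreated apoE-deficient minus B6 gave -0.014 (adjusted p = 0.919). Col1a2 levels were 11.40 and 11.49 on treated, 11.08 and 11.05 on untreated apoE-deficient and 11.25 and 11.42 on B6 arrays. For Col1a2 the untreated apoE-deficient arrays were the low ones, and treated and B6 arrays overlapped. Treated exceeded untreated apoE-deficient hearts in Col1a2 by 0.37 ± 0.063 (adjusted p = 0.00325), untreated apoE-deficient hearts were below B6 hearts at -0.27 ± 0.063 (adjusted p = 0.039), and treated minus B6 was 0.11 (adjusted p = 0.317). The Col1a2 call between untreated apoE-deficient and B6 hearts was lost without either untreated array and without B6 replicate 2 (-0.18), and with hybridization control scaling (-0.092). The Col1a1 call against B6 was lost without B6 replicate 2 (0.31) and with the mean over its probe sets (0.13). A second Col1a1 probe set was lower in untreated apoE-deficient than in B6 hearts at -0.58 (adjusted p = 0.0321) and differed by -0.048 (adjusted p = 0.871) between treated and B6 hearts.

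Type V chains, which join type I fibrils and set their diameter, did not share 1 pattern: Col5a1 and Col5a2 rose with treatment, while Col5a3 was below B6 in both apoE-deficient groups. Col5a1 levels were 9.46 and 9.47 on treated, 8.63 and 8.79 on untreated apoE-deficient and 9.20 and 9.29 on B6 arrays, with no overlap between groups. The Col5a1 difference was 0.75 ± 0.084 (adjusted p = 0.000359) for treated against untreated apoE-deficient hearts and -0.53 ± 0.084 (adjusted p = 0.00776) for untreated apoE-deficient against B6 hearts, while treated minus B6 was 0.22 (adjusted p = 0.124). Without B6 replicate 2 the call between untreated apoE-deficient and B6 hearts was lost (-0.49). The Col5a1 rise with treatment was seen with the brightest probe set only. The other 2 tested ones gave -0.13 and -0.23, and the mean over the probe sets lost the call (0.13). Col5a2 levels were 9.71 and 9.63 on treated, 8.99 and 9.32 on untreated apoE-deficient and 9.36 and 9.39 on B6 arrays. Treated exceeded untreated apoE-deficient hearts in Col5a2 by 0.51 ± 0.11 (adjusted p = 0.00927), a call lost without treated replicate 1 (0.47), and differences of -0.22 (adjusted p = 0.253) for untreated apoE-deficient minus B6 and 0.29 (adjusted p = 0.113) for treated minus B6 did not pass.

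Col5a3, a further type V chain, had a different order of groups, with 7.54 and 7.67 on treated and 7.72 and 7.66 on untreated apoE-deficient arrays, against 8.16 and 8.32 on B6 arrays. The 4 apoE-deficient arrays overlapped and lay below both B6 arrays. Col5a3 was lower than in B6 hearts by a difference of -0.63 ± 0.12 (adjusted p = 0.00823) in treated and -0.55 ± 0.12 (adjusted p = 0.0317) in untreated apoE-deficient hearts, and treated minus untreated apoE-deficient was -0.086 (adjusted p = 0.684). The call in untreated apoE-deficient hearts was lost when any 1 of the 4 arrays compared was left out (-0.63 to -0.47), and the call in treated hearts was lost without treated replicate 1 (-0.57) or B6 replicate 2 (-0.55) and with hybridization control scaling (-0.28), and turned positive without scaling (0.27).

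Col27a1, a fibrillar chain best known from cartilage and skeletal growth, had the largest difference of the tested fibrillar chains between treated and untreated apoE-deficient hearts, with a wide spread. Its levels were 7.45 and 7.75 on treated, 6.58 and 5.85 on untreated apoE-deficient and 7.01 and 6.47 on B6 arrays. Both treated arrays lay above the other 4, and untreated apoE-deficient and B6 arrays overlapped. Treated minus untreated apoE-deficient was 1.38 ± 0.28 (adjusted p = 0.00823), which did not pass without treated replicate 2 (1.23). Treated minus B6 was 0.86 ± 0.28 (adjusted p = 0.0745) and did not pass, although it passed with scaling by trimmed means, array medians or hybridization controls. Col11a2, a type XI chain of cartilage, had 5.64 and 5.46 on treated, 5.38 and 6.12 on untreated apoE-deficient and 5.53 and 5.76 on B6 arrays, which overlapped, and passed in no comparison (adjusted p 0.741, 0.894 and 0.904 in the order of the comparisons above). The cartilage chain Col2a1, the type XI chain Col11a1 and Col24a1 were below the filter.

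**Figure D2:**
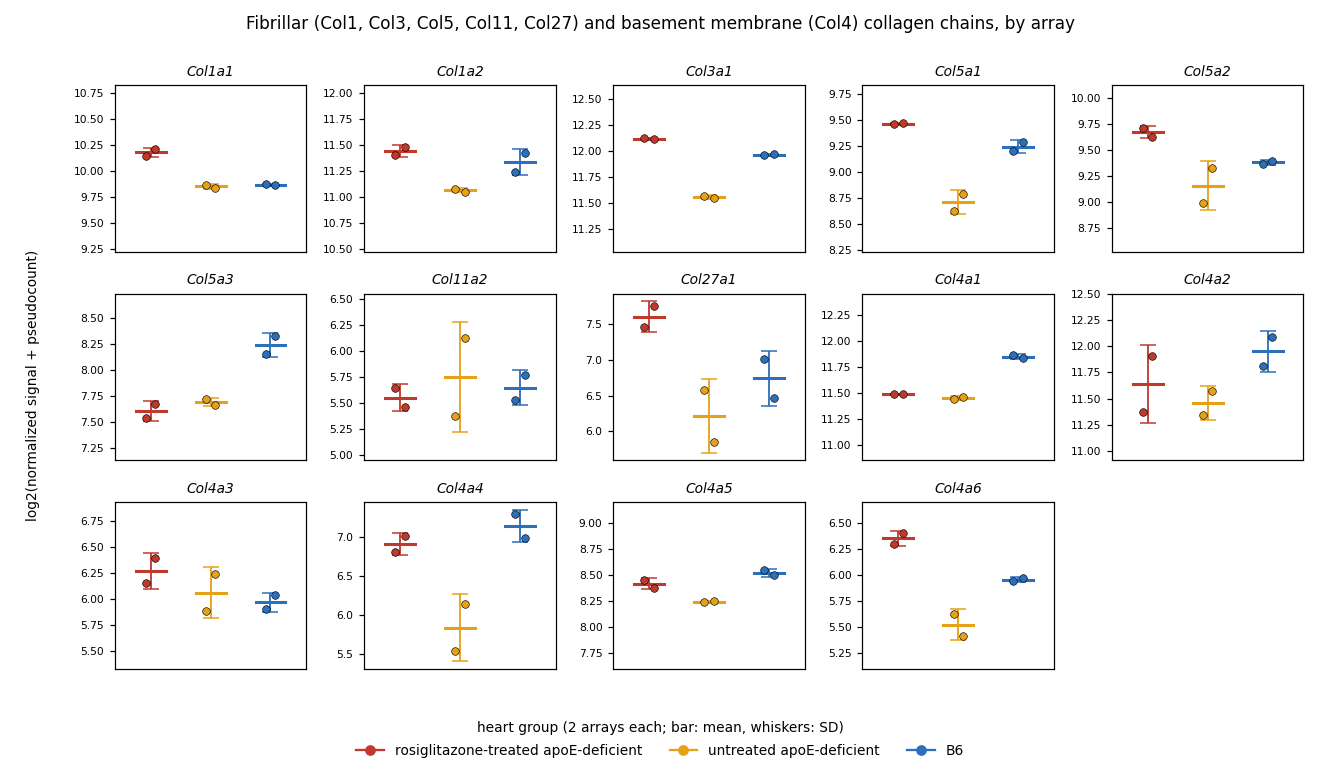
Log2 levels of the 8 tested fibrillar and 6 basement membrane chains by array, with treated, untreated apoE-deficient and B6 hearts from left to right in each panel, points for arrays, bars for means and whiskers for SD, each panel having its own axis. In the Col3a1 panel the treated points lie at 12.12 and the untreated apoE-deficient points at 11.55 and 11.57, while in the Col4a1 panel both apoE-deficient groups lie below the B6 points.

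Sequence upstream of the annotated start was available for 33 of the 42 genes in RefSeq's promoter set (GRCm38.p6), in 36 windows. The 250 bases before the start are printed for Col1a2, Col3a1, Col5a1 and Col8a1, the fibrillar and type VIII chains that passed both between treated and untreated apoE-deficient and between untreated apoE-deficient and B6 hearts. Col1a2 lies at chr6:4505368-4505617 on the plus strand, Col3a1 at chr1:45311288-45311537 (plus), Col5a1 at chr2:27886175-27886424 (plus) and Col8a1 at chr16:57754738-57754987 (minus). Capitals mark CCAAT or its reverse complement ATTGG on either strand, the letters TATAAA on the strand of the gene, and the letters GGGCGG or their reverse complement CCGCCC.
Col1a2: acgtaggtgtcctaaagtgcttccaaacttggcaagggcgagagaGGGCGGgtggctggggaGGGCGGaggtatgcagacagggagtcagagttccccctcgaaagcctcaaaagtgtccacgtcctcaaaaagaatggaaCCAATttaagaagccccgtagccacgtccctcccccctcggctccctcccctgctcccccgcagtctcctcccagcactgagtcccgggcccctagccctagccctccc
Col3a1: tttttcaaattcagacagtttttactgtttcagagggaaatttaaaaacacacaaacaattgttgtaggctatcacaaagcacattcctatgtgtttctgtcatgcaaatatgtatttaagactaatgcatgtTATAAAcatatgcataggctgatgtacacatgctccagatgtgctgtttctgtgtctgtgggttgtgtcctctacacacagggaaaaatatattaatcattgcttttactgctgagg
Col5a1: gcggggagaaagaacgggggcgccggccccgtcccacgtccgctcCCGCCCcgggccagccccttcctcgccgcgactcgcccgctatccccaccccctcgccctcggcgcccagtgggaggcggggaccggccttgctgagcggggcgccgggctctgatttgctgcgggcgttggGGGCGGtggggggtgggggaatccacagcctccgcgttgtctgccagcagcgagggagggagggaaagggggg
Col8a1: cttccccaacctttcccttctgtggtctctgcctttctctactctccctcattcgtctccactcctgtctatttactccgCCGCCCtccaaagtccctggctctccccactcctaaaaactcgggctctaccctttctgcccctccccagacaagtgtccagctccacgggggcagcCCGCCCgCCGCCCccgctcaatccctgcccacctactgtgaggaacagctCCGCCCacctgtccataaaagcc
The Col1a2 window held CCAAT and 2 copies of GGGCGG, the Col3a1 window held TATAAA alone, and the Col5a1 and Col8a1 windows held 2 and 4 copies of GGGCGG. Over the 36 collagen windows, CCAAT was found in 36.1%, TATAAA in 13.9% and GGGCGG in 58.3%, beside 33.8%, 7.59% and 32.7% of all 32851 windows of that length. These matches describe the letters, and binding by any factor was not measured.

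Of the 6 type IV chains, Col4a4 and Col4a6 rose in treated against untreated apoE-deficient hearts, and the other 4 did not pass, all 6 differences lying between 0.036 and 1.08. Col4a1 and Col4a4 were lower in untreated apoE-deficient than in B6 hearts, and Col4a1 was lower in treated than in B6 hearts.

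Col4a1 and Col4a2 combine in the type IV collagen found in all basement membranes and are transcribed in opposite directions from starts 21 bases apart, so that their RefSeq windows of 300 bases share 78. Col4a1 levels were 11.49 and 11.49 on treated and 11.44 and 11.47 on untreated apoE-deficient arrays, against 11.87 and 11.83 on B6 arrays. All 4 apoE-deficient arrays lay below both B6 arrays. The difference from B6 was -0.36 ± 0.041 (adjusted p = 0.000536) in treated and -0.40 ± 0.041 (adjusted p = 0.00116) in untreated apoE-deficient hearts, and treated minus untreated apoE-deficient was 0.036 (adjusted p = 0.6). Col4a2 levels were 11.37 and 11.91 on treated, 11.34 and 11.57 on untreated apoE-deficient and 11.81 and 12.09 on B6 arrays, with wider spread than its partner. Col4a2 differed from B6 by -0.31 (adjusted p = 0.246) in treated and -0.50 (adjusted p = 0.0996) in untreated apoE-deficient hearts and by 0.18 (adjusted p = 0.476) between these, and none of the 3 passed. The Col4a2 difference between untreated apoE-deficient and B6 hearts passed with array median scaling and without either treated array (-0.50). A second Col4a1 probe set gave 0.0043 (adjusted p = 0.989) for untreated apoE-deficient minus B6 and was lower in treated than in B6 hearts at -0.47 (adjusted p = 0.033), and the mean over both probe sets ended the untreated apoE-deficient call (-0.20). The Col4a1 call in treated hearts was lost with hybridization control scaling (-0.14) and turned positive without scaling (0.43).

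Col4a3, Col4a4 and Col4a5 form the type IV network of the kidney filter, where their mutations cause Alport syndrome. Col4a4 levels were 6.81 and 7.01 on treated, 5.53 and 6.14 on untreated apoE-deficient and 7.30 and 7.00 on B6 arrays. The untreated apoE-deficient arrays were the low ones, and treated and B6 arrays overlapped. Treated exceeded untreated apoE-deficient hearts by 1.08 ± 0.25 (adjusted p = 0.0152), a call lost without either treated array (1.18 without replicate 1 and 0.97 without replicate 2) or untreated replicate 1 (0.77). Untreated apoE-deficient hearts were below B6 hearts by a difference of -1.31 ± 0.25 (adjusted p = 0.0169), lost without untreated replicate 1 (-1.0) or either B6 array (-1.16 and -1.46). Its partner Col4a3 had 6.15 and 6.39 on treated, 5.88 and 6.23 on untreated apoE-deficient and 5.90 and 6.03 on B6 arrays. The untreated apoE-deficient arrays overlapped both other groups, and the treated arrays lay above the B6 arrays. None of the Col4a3 differences passed, at 0.21 (adjusted p = 0.62), 0.094 (adjusted p = 0.866) and 0.31 (adjusted p = 0.513) in the same order of comparisons.

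The neighbouring genes Col4a5 and Col4a6, whose annotated starts lie 1343 bases apart, were also read side by side. Col4a6, a chain of smooth muscle and epithelial basement membranes, had 6.30 and 6.41 on treated, 5.63 and 5.42 on untreated apoE-deficient and 5.94 and 5.97 on B6 arrays, with no overlap between groups. Treated minus untreated apoE-deficient was 0.83 ± 0.25 (adjusted p = 0.0488), close to the threshold, and it did not pass when any 1 of the 6 arrays was left out (0.72 to 0.93). Col4a5 levels were 8.46 and 8.38 on treated, 8.24 and 8.25 on untreated apoE-deficient and 8.55 and 8.50 on B6 arrays, again without overlap. With this probe set the Col4a5 differences did not pass, at 0.17 (adjusted p = 0.247) for treated minus untreated apoE-deficient, -0.28 (adjusted p = 0.119) for untreated apoE-deficient minus B6 and -0.11 (adjusted p = 0.544) for treated minus B6. A second Col4a5 probe set was called lower than in B6 hearts in treated (-0.91) and in untreated apoE-deficient hearts (-0.63), and the mean over both probe sets also passed as lower in both comparisons.

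Among the other collagens, Col8a1, Col14a1 and Col18a1 rose in treated against untreated apoE-deficient hearts and were above B6 hearts too. Col12a1 was above B6 hearts. Col15a1 was lower in treated than in untreated apoE-deficient hearts, as was Col19a1, whose treated levels lay near the floor. Col8a1, a chain of the network-forming type VIII collagen of vessel walls, had 9.91 and 9.75 on treated, 8.83 and 9.02 on untreated apoE-deficient and 8.39 and 8.45 on B6 arrays. The groups stood in 3 separate steps, and Col8a1 was the one chain higher in each of the 3 comparisons. Treated exceeded untreated apoE-deficient hearts by 0.91 ± 0.10 (adjusted p = 0.000262) and B6 hearts by 1.41 ± 0.10 (adjusted p = 2.64e-05), a 2.66-fold difference, and untreated apoE-deficient exceeded B6 hearts by 0.50 ± 0.10 (adjusted p = 0.0173). That last call was lost without untreated replicate 2 (0.41) or either B6 array (0.48 and 0.53) and with array median scaling (0.40). The partner chain Col8a2 differed by -0.17 (adjusted p = 0.764), 0.43 (adjusted p = 0.482) and 0.25 (adjusted p = 0.697) for treated against untreated apoE-deficient hearts, untreated apoE-deficient against B6 hearts and treated against B6 hearts and passed in none. Whether the chains of a pair differ from each other in response was not tested.

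Col18a1 and Col15a1 are the multiplexins, proteoglycan collagens whose C-terminal fragments are endostatin and the related restin, and they moved in opposite directions with treatment. Col18a1 levels were 8.38 and 8.32 on treated, 7.11 and 7.29 on untreated apoE-deficient and 7.37 and 7.10 on B6 arrays. The treated arrays lay above the other 4, which overlapped. Treated hearts exceeded untreated apoE-deficient hearts by 1.15 ± 0.14 (adjusted p = 0.000703) and B6 hearts by 1.12 ± 0.14 (adjusted p = 0.00104), while untreated apoE-deficient minus B6 was -0.036 (adjusted p = 0.915). Col15a1, whose loss in mice damages skeletal muscle and capillaries, had 7.89 and 8.16 on treated, 8.63 and 8.40 on untreated apoE-deficient and 8.39 and 8.66 on B6 arrays. Both treated arrays were below the other 4, which overlapped. The Col15a1 difference was -0.49 ± 0.14 (adjusted p = 0.0385) from untreated apoE-deficient and -0.50 ± 0.14 (adjusted p = 0.0436) from B6 hearts. The first call was lost with scaling by trimmed means (-0.39), hybridization controls (-0.22) or array medians (-0.32) and without treated replicate 1 (-0.35) or either untreated array (-0.38 and -0.60). The call against B6 was lost without treated replicate 1 (-0.36), untreated replicate 1 (-0.50) or B6 replicate 2 (-0.36) and with hybridization control scaling (-0.14). Without scaling both Col15a1 differences turned positive (0.79 and 0.41).

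Of the FACIT collagens, Col14a1, which binds fibril surfaces and limits fibril growth, had 8.97 and 8.91 on treated, 8.16 and 7.87 on untreated apoE-deficient and 8.31 and 8.37 on B6 arrays. The groups did not overlap, and the treated hearts were highest. The Col14a1 difference was 0.93 ± 0.11 (adjusted p = 0.000634) from untreated apoE-deficient and 0.61 ± 0.11 (adjusted p = 0.0074) from B6 hearts, the second of which did not pass without treated replicate 1 (0.58). Col12a1, a related FACIT of tendon and of loaded tissue, had 6.64 and 6.64 on treated, 6.38 and 6.00 on untreated apoE-deficient and 5.54 and 5.60 on B6 arrays. Its groups again stood apart with treated highest, and the treated minus B6 difference of 1.07 ± 0.24 (adjusted p = 0.0173) passed, while 0.45 (adjusted p = 0.241) against untreated apoE-deficient hearts and 0.63 (adjusted p = 0.17) for untreated apoE-deficient minus B6 did not. The passing Col12a1 difference was lost when any 1 of the treated or B6 arrays was left out (1.05 to 1.10).

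Col19a1, a FACIT found in muscle and basement membrane zones, had 4.56 and 3.91 on treated, 5.41 and 6.11 on untreated apoE-deficient and 5.02 and 5.29 on B6 arrays. The treated levels were near the pseudocount floor of 3.47 and the lowest of the 6, and the arrays of both apoE-deficient groups were far apart. Its mean over all arrays, 5.05, cleared the filter of 4.99, while its treated mean of 4.23 did not. The chain thus entered the test only through the other groups, and 14 of the 19 alternatives tested it. Its other probe sets lay below the filter and were not tested, with treated minus untreated apoE-deficient differences of 0.09 and 0.47. Treated minus untreated apoE-deficient was -1.52 ± 0.44 (adjusted p = 0.0389), a call lost without treated replicate 1 (-1.85), treated replicate 2 (-1.20) or either B6 array. Removal of a B6 array leaves this difference as it was and changes the shared spread and the probe sets that lie above the filter. Col16a1, another FACIT, was 0.74 (adjusted p = 0.103) in untreated apoE-deficient minus B6 hearts and did not pass.

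The type VI chains Col6a1, Col6a2 and Col6a3, which form the beaded filaments around cardiomyocytes and fibroblasts, had group means within 0.18 of each other and passed in no comparison. Treated minus untreated apoE-deficient was 0.13 ± 0.064 (adjusted p = 0.182) for Col6a1, 0.11 ± 0.051 (adjusted p = 0.155) for Col6a2 and 0.026 ± 0.066 (adjusted p = 0.833) for Col6a3. Untreated apoE-deficient minus B6 was -0.18 (adjusted p = 0.142), -0.11 (adjusted p = 0.237) and -0.015 (adjusted p = 0.92) in that order of chains, and treated minus B6 -0.042 (adjusted p = 0.752), 0.0037 (adjusted p = 0.976) and 0.01 (adjusted p = 0.949). Both Col6a1 and Col6a2 passed as higher in treated than in untreated apoE-deficient hearts with scaling by hybridization controls, which moves all probe sets up. The remaining tested chains were the anchoring fibril chain Col7a1, the cartilage FACIT Col9a1, the FACIT chains Col20a1 and Col22a1, and the transmembrane collagen Col23a1, and none of them passed in any comparison, with treated minus untreated apoE-deficient differences between -0.29 and 0.73.

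**Figure D3:**
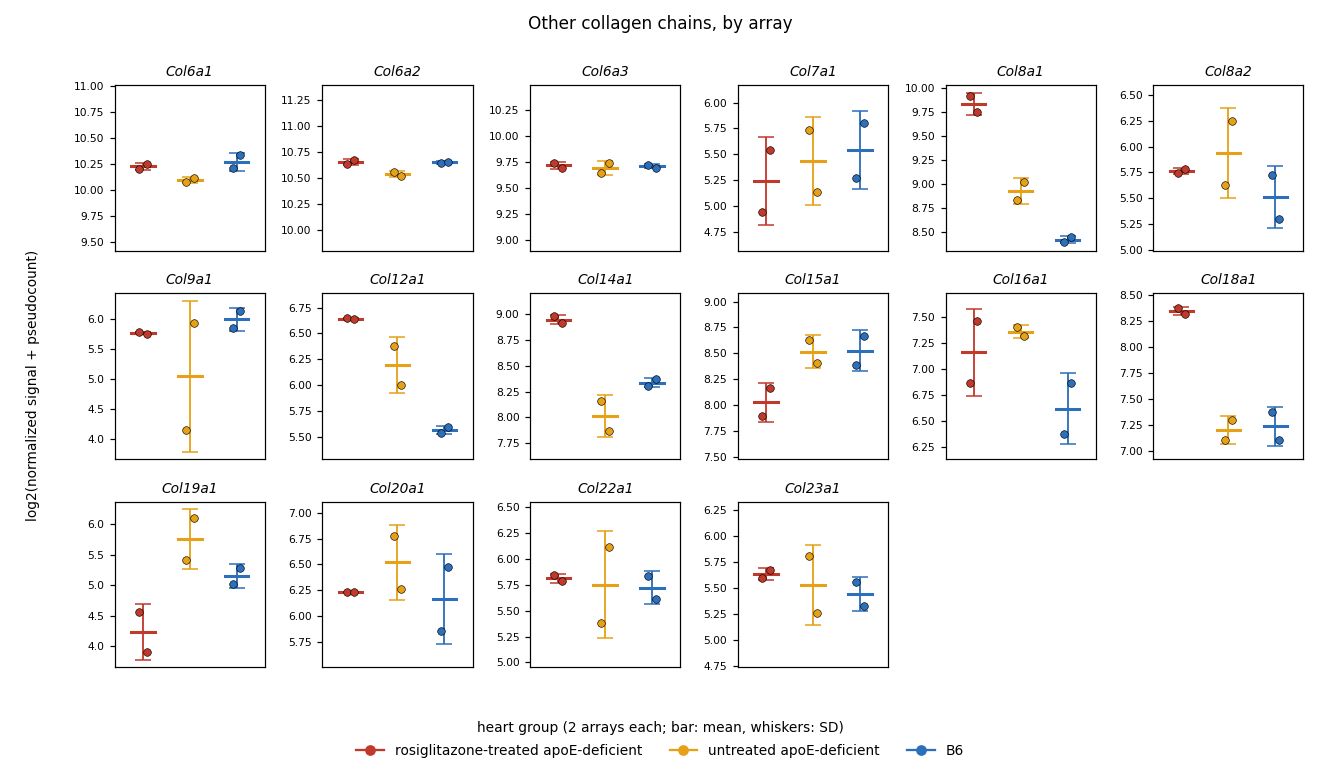
Log2 levels of the 16 tested chains of other collagens by array, with treated, untreated apoE-deficient and B6 hearts from left to right in each panel, points for arrays, bars for means and whiskers for SD, each panel having its own axis. Col8a1 falls in 3 steps across the groups, Col18a1 is high on the treated arrays only, and the type VI chains lie almost level.

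Below the filter lay 12 chains, with mean levels of 3.80 to 4.87 against a filter of 4.99, while tested chains had means of 5.05 to 11.88. They were Col2a1, Col11a1, Col24a1, Col6a4, Col6a5, Col9a2, Col9a3, Col10a1, Col13a1, Col17a1, Col25a1 and Col26a1, which include the chains that mark cartilage and its hypertrophic zone. They were not tested, and such levels give no statement on whether the chains are made.

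Other probe sets of the same genes gave a further reading of each chain. The second probe set rose with the first in treated against untreated apoE-deficient hearts for Col1a1 (0.53), Col1a2 (0.67), Col3a1 (1.22), Col4a4 (0.81) and Col18a1 (0.93), and 1 of 2 further probe sets rose for Col8a1 (0.71). Those of Col5a1 had the opposite sign, at -0.13 and -0.23, and did not pass. The second Col5a2 probe set was close to the brightest in size (0.45 beside 0.51) and did not pass. Those of Col14a1 (0.11), Col27a1 (0.24) and Col4a6 (0.04) were positive but smaller and did not pass. A second Col4a1 probe set was lower in treated than in untreated apoE-deficient hearts at -0.47 (adjusted p = 0.0262), where the brighter one gave 0.036 (adjusted p = 0.6). A second Col4a5 probe set was lower than in B6 hearts by a difference of -0.91 in treated (adjusted p = 0.000966) and -0.63 in untreated apoE-deficient hearts (adjusted p = 0.0154). Of the calls between untreated apoE-deficient and B6 hearts with a second tested probe set, the second also passed for Col3a1 (-1.02) and did not for Col1a2 (-0.23), Col4a1 (0.0043), Col4a4 (-0.58), Col5a1 (-0.19 and 0.039) and Col8a1 (0.24 and -0.24). Between treated and B6 hearts a second probe set passed in the same direction for Col4a1 (-0.47), Col8a1 (0.95, with a further one at 0.37 that did not pass) and Col18a1 (1.30), and did not pass for Col1a1 (-0.048), Col3a1 (0.20), Col12a1 (-0.14) and Col14a1 (0.23). A second Col1a2 probe set was higher in treated than in B6 hearts (0.44, adjusted p = 0.00281), where the brightest did not pass. A further Col5a1 probe set was lower in treated than in B6 hearts (-0.41, adjusted p = 0.0239), where the brightest gave 0.22 (adjusted p = 0.124). Which transcripts each probe set measures was not determined. The mean over all probe sets of a gene, those below the filter included, left 6 chains higher in treated than in untreated apoE-deficient hearts. It ended the calls of Col1a2 (0.14), Col5a1 (0.13), Col14a1 (0.35), Col4a4 (0.88) and Col4a6 (0.43). The tested probe sets of Col1a2 and of Col4a4 had all passed there, and the Col1a2 mean took in a probe set below the filter at -0.61. The mean also ended the calls of Col1a2 (0.13), Col4a1 (-0.20), Col4a4 (-0.85), Col5a1 (-0.23), Col5a3 (-0.028) and Col8a1 (0.17) between untreated apoE-deficient and B6 hearts, and of Col1a1 (0.13), Col3a1 (0.17), Col5a3 (-0.37) and Col14a1 (0.26) between treated and B6 hearts. Col5a3 had no further tested probe set. For Col4a5 the mean gained calls as lower than in B6 hearts, in treated (-0.51) and in untreated apoE-deficient hearts.

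**Figure D4:**
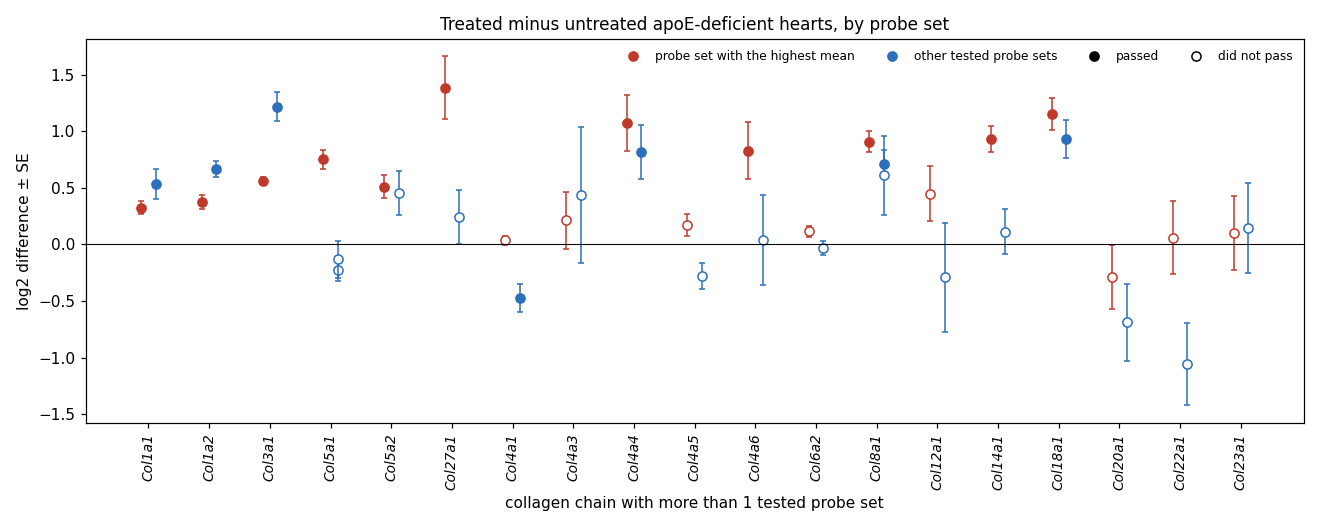
Log2 differences ± SE between treated and untreated apoE-deficient hearts for every tested probe set of the collagen chains with more than 1 tested probe set, with the brightest probe set in red and the others in blue, filled where they passed. For Col3a1 both probe sets lie above 0, at 0.56 and 1.22, while for Col5a1 the brightest lies at 0.75 and the other 2 lie below 0.

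The calls of Col3a1, Col8a1 and Col18a1 between treated and untreated apoE-deficient hearts, and of Col8a1 and Col18a1 between treated and B6 hearts, passed in the same direction in all 19 alternative settings. Of the 7 calls between untreated apoE-deficient and B6 hearts, every one was lost in a fit without an intensity trend, and the Col3a1 call was lost in that setting alone. Leaving out the trend also ended the calls of Col1a1, Col1a2, Col5a2, Col15a1, Col27a1, Col4a4 and Col19a1 between treated and untreated apoE-deficient hearts, and of Col3a1, Col4a1, Col1a1, Col14a1, Col15a1 and Col5a3 between treated and B6 hearts. Without the filter, the calls of Col15a1, Col4a6 and Col19a1 in the first of these comparisons, of Col1a2 between untreated apoE-deficient and B6 hearts, and of Col3a1 and Col15a1 between treated and B6 hearts were lost. A fit of the 2 groups alone ended the calls of Col4a6 and Col19a1, and a pseudocount of 1 that of Col4a6. Among the 30 chains the direction between treated and untreated apoE-deficient hearts differed between the normalized settings for Col5a3, Col4a1 and Col16a1, all of them near 0.

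**Figure D5:**
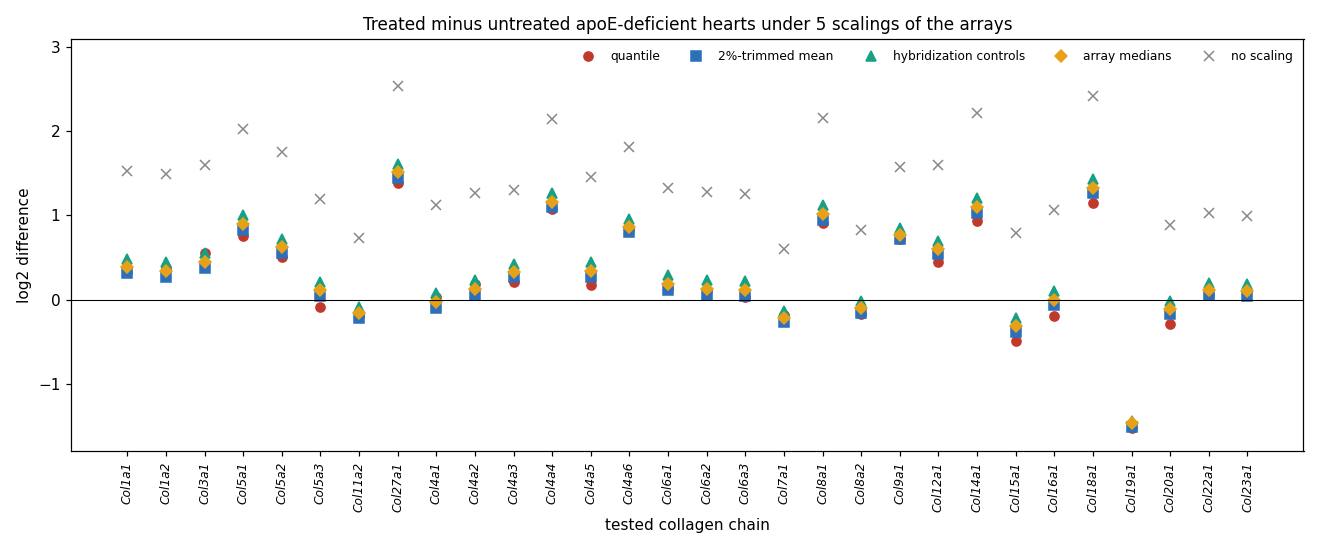
Log2 differences between treated and untreated apoE-deficient hearts for the 30 tested collagen chains under 5 scalings of the arrays. The 4 normalized settings lie close together for each chain, with hybridization controls highest for nearly all, and the unscaled signals are shifted up by about the median of 1.13 over all probe sets.

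Among genes that make and mature collagen, calls ran in both directions. Of 30 tested genes of collagen biosynthesis and processing, 4 were higher and 6 lower in treated than in untreated apoE-deficient hearts, with a median of -0.037, where 11.4% of all genes were higher and 12.3% lower. P4ha1 and P4ha2, catalytic subunits of the prolyl hydroxylase that stabilises the helix, fell in treated hearts, as did Serpinh1, the collagen chaperone HSP47. P4ha1 had 8.62 and 8.51 on treated, 9.70 and 9.64 on untreated apoE-deficient and 8.75 and 8.61 on B6 arrays. The untreated apoE-deficient arrays were the high ones, with differences of -1.10 ± 0.088 (adjusted p = 5.73e-05) for treated minus untreated apoE-deficient and 0.99 ± 0.088 (adjusted p = 0.000439) for untreated apoE-deficient minus B6. P4ha2 had 8.84 and 8.83 on treated, 9.80 and 9.83 on untreated apoE-deficient and 9.16 and 9.26 on B6 arrays, with differences of -0.98 ± 0.073 (adjusted p = 3.92e-05) and 0.61 ± 0.073 (adjusted p = 0.0022) for the same comparisons. Serpinh1 had 11.26 and 11.23 on treated, 11.74 and 11.77 on untreated apoE-deficient and 11.39 and 11.40 on B6 arrays, with differences of -0.51 ± 0.042 (adjusted p = 7.34e-05) and 0.36 ± 0.042 (adjusted p = 0.00188). For these 3 genes the untreated apoE-deficient hearts were above both other groups, which is the reverse of the order seen for Col3a1 and Col5a1. Without scaling, their treated minus untreated apoE-deficient differences turned positive (0.14, 0.25 and 0.55).

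Loxl1, a lysyl oxidase that cross-links elastin and collagen, followed the order of Col3a1 instead. Its levels were 10.61 and 10.55 on treated, 10.00 and 9.99 on untreated apoE-deficient and 10.49 and 10.48 on B6 arrays, with differences of 0.59 ± 0.054 (adjusted p = 0.000125) for treated minus untreated apoE-deficient and -0.49 ± 0.054 (adjusted p = 0.00146) for untreated apoE-deficient minus B6. Between untreated apoE-deficient and B6 hearts 6 genes of the list were higher and 3 lower (median 0.0078), where 3.85% and 4.66% of all genes were, and between treated and B6 hearts 3 were higher and 6 lower (median -0.040), where 8.78% and 9.87% of all genes were. P3h4, a partner of a lysyl hydroxylase, was lower in treated than in B6 hearts at -1.07 ± 0.074 (adjusted p = 2.97e-05), Plod1, a lysyl hydroxylase, at -0.36 ± 0.071 (adjusted p = 0.00933) and P4ha2 at -0.37 ± 0.073 (adjusted p = 0.00937). Pcolce, which speeds removal of the procollagen C-terminal propeptide, was higher in treated than in B6 hearts at 0.55 ± 0.045 (adjusted p = 8.25e-05). With hybridization control scaling the Plod1 and P4ha2 differences from B6 no longer passed (-0.042 and -0.028), without scaling they turned positive (0.53 each), and without B6 replicate 2 they did not pass (-0.27 and -0.32).

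Of 9 tested collagen receptors 1 rose in treated against untreated apoE-deficient hearts, about the share of 11.4% among all genes. It was the discoidin domain receptor Ddr1, with 9.99 and 9.75 on treated, 8.95 and 8.60 on untreated apoE-deficient and 8.93 and 8.73 on B6 arrays. Treated arrays were above the other 4, which overlapped, and the difference was 1.10 ± 0.13 (adjusted p = 0.000551) from untreated apoE-deficient and 1.05 ± 0.13 (adjusted p = 0.000877) from B6 hearts. The beta 1 integrin Itgb1 was lower in treated than in B6 hearts at -0.33 ± 0.067 (adjusted p = 0.0106), which did not pass with hybridization control scaling (-0.031) or without treated replicate 1 (-0.24) or B6 replicate 2 (-0.30) and turned positive without scaling (0.54). For untreated apoE-deficient against B6 hearts limma called 0 of the 9 receptors, with 1 lower at an unadjusted p under 0.05.

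Of 14 tested partners of type IV collagen in the basement membrane, 1 rose and 3 fell in treated against untreated apoE-deficient hearts, where 11.4% of all genes rose and 12.3% fell. Nidogen Nid1, which links laminin to type IV collagen, had 10.95 and 10.87 on treated, 9.95 and 10.05 on untreated apoE-deficient and 10.40 and 10.40 on B6 arrays. Its groups did not overlap, treated being highest and untreated apoE-deficient lowest, with differences of 0.91 ± 0.06 (adjusted p = 1.84e-05) for treated minus untreated apoE-deficient, -0.40 ± 0.06 (adjusted p = 0.00624) for untreated apoE-deficient minus B6 and 0.51 ± 0.06 (adjusted p = 0.000602) for treated minus B6. The laminin chains Lama5 at -0.53 ± 0.066 (adjusted p = 0.00067), Lamb2 at -0.57 ± 0.074 (adjusted p = 0.000801) and Lama2 at -0.37 ± 0.071 (adjusted p = 0.00603) were the 3 that fell, Lama2 losing its call with hybridization control scaling (-0.19), and all 3 turned positive without scaling (0.69, 0.61 and 0.85). Between untreated apoE-deficient and B6 hearts 3 of the 14 were lower, where 4.66% of all genes were. They were Nid1, the peroxidasin Pxdn, which cross-links type IV collagen, at -0.41 ± 0.068 (adjusted p = 0.00927) and Lama4, a laminin chain of vessels, at -0.30 ± 0.067 (adjusted p = 0.033). The Pxdn call was lost without untreated replicate 2 (-0.37) or either B6 array (-0.43 and -0.40), and the Lama4 call when any 1 of the 4 arrays compared was left out (-0.34 to -0.25). With hybridization control scaling the Nid1 (-0.26) and Lama4 (-0.17) calls were lost and the Pxdn call stayed (-0.30). Lama4 also did not pass without scaling (-0.63). Between treated and B6 hearts 2 of the 14 were higher and 6 lower, where 8.78% of all genes were higher and 9.87% lower. Among the lower were Lama2 at -0.52 ± 0.071 (adjusted p = 0.00133), Lama5 at -0.47 ± 0.066 (adjusted p = 0.00158) and Lamb2 at -0.48 ± 0.074 (adjusted p = 0.0026). With hybridization control scaling these last 3 did not pass (-0.20, -0.14 and -0.18), and without scaling they turned positive (0.37, 0.43 and 0.39).

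Markers of several cell types were read beside the collagen chains. Between treated and untreated apoE-deficient hearts 11.4% of all tested genes were higher and 12.3% lower, the shares to set beside the marker counts of that comparison. Of 9 tested activated fibroblast markers 6 were higher in treated than in untreated apoE-deficient hearts. The summed normalized signal of the list was 10870 to 11475 on treated, 6100 to 6114 on untreated apoE-deficient and 6143 to 6389 on B6 arrays. Sums of linear signal are weighted to the brightest genes of a list, here Acta2, with levels of 12.42 and 12.61 on treated and 11.63 and 11.72 on untreated apoE-deficient arrays. Smooth muscle makes Acta2 as well, so this sum does not separate the cell types. Of 13 general fibroblast markers 6 were higher and 2 lower, with sums of 44382 to 44852 on treated, 39389 to 39923 on untreated apoE-deficient and 40479 to 40756 on B6 arrays. Adipocyte markers, a list that does not separate white from brown fat, were higher for 9 of 11. Their sums were 38968 to 39410 on treated, 15133 to 15346 on untreated apoE-deficient and 15687 to 16450 on B6 arrays. The adipocyte gene Lep lay below the filter, at 4.59 and 4.65 on treated and 5.00 and 4.93 on untreated apoE-deficient arrays. Airway and lung markers, which heart muscle does not normally make, were higher for 5 of 8, with sums of 15860 to 16798 on treated, 239 to 281 on untreated apoE-deficient and 180 to 254 on B6 arrays. The airway secretory gene Scgb1a1 had 11.71 and 11.97 on treated against 3.64 and 4.94 on untreated apoE-deficient arrays. The alveolar genes differed less, Sftpc with 6.21 and 6.19 against 5.83 and 5.31 and Sftpb with 5.80 and 5.06 against 4.88 and 4.99. Sftpa1, Sftpd, Ager and Cldn18 lay below the filter. Cartilage, that of the airways included, makes its own collagens. Of 10 tested cartilage markers 3 were higher (Prg4, Comp and Cytl1) and 7 did not pass, Acan and Sox9 among them. Differences of the 10 ran from -0.61 to 0.70, with a median of 0.22. Snorc had 5.07 and 5.50 on treated against 5.85 and 5.95 on untreated apoE-deficient arrays and did not pass. Sums of the list were 2242 to 2248 on treated, 1565 to 1875 on untreated apoE-deficient and 1412 to 1441 on B6 arrays. The cartilage matrix genes Matn1, Matn3, Matn4 and Hapln1 and the collagen Col2a1 lay below the filter. The part of any of these cell types in the collagen differences was not tested.

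Cardiomyocyte markers were higher for 2 and lower for 6 of 10 in the same comparison, with sums of 144732 to 151848 on treated, 160070 to 161108 on untreated apoE-deficient and 161979 to 162280 on B6 arrays. Endothelial markers were higher for 3 and lower for 1 of 10 (sums of 9041 to 9191 on treated, 8055 to 8074 on untreated apoE-deficient and 8116 to 8126 on B6 arrays), and mural cell markers higher for 4 and lower for 5 of 10 (19019 to 19239, 21558 to 21581 and 21966 to 22112 in the same order of groups). In the mural list the smooth muscle genes Tagln, Cnn1 and Myh11 lay higher on treated than on untreated apoE-deficient arrays (Tagln 10.30 and 10.21 against 9.35 and 9.50). Rgs5, Abcc9 and Kcnj8 lay lower (Rgs5 12.55 and 12.55 against 12.74 and 12.75). Mesothelial markers were higher for 3 of 8 (1495 to 1570 on treated, 1056 to 1152 on untreated apoE-deficient and 1145 to 1163 on B6 arrays). Of 4 Schwann cell and 4 keratinocyte markers limma called 0 in this comparison, with 0 at an unadjusted p under 0.05. Between untreated apoE-deficient and B6 hearts the calls were 1 higher of 9 activated fibroblast markers, 2 higher and 2 lower of 13 fibroblast markers, 1 higher and 2 lower of 10 endothelial markers, 1 higher of 10 cardiomyocyte markers, 1 lower of 10 mural cell markers and 4 lower of 11 adipocyte markers. Of all tested genes 3.85% were higher and 4.66% lower there. The part of these cell types in the lower Col3a1, Col5a1 and Col4a1 signals was not tested.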

How the data were processed

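Heart RNA was measured on 6 mouse expression arrays in 3 groups of 2. The authors deposited 1 linear intensity per probe set and array, made with GCOS per the submitters' processing notes. Its version and how it scaled the arrays are not stated in the labels, and detection calls played no part. Of 45101 probe sets, 64 controls were left out. The linear signals of the other 45037 were quantile-normalized, a pseudocount of 11.1 (the 25th percentile) was added, and log2 was taken. Probe sets with a mean above the 40th percentile (4.99), 27022 in all, went into a fit by limma 3.58.1 under R 4.3.3 (lmFit, then eBayes with intensity trend), with 3 residual and 5.97 prior degrees of freedom. Figures were drawn with matplotlib 3.10.9.

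The platform annotation, which can be old, paired 34945 probe sets with 1 symbol, 932 with several and 9160 with none, and 34741 symbols were updated by gene number with a GRCm38.p6 table; probe sets with several symbols or none were not named. Each gene was read from its brightest probe set, which gave 13236 tested genes. Every collagen chain could be named, and of the lists of processing genes, receptors and basement membrane partners up to 4 with the smallest p per comparison. Values in every array are given for tested fibrillar and basement membrane chains and for other chains that passed. The markers Prg4, Comp, Cytl1, Acan, Sox9, Snorc, Acta2 and Lep were named after their values were seen. So were the mural cell markers Tagln, Cnn1, Myh11, Rgs5, Abcc9 and Kcnj8. The same holds for Scgb1a1, Sftpc, Sftpb, Sftpa1, Sftpd, Ager and Cldn18, and for Col16a1 among chains that did not pass. The members, lists and tests were chosen with earlier results of these data known. Of the listed symbols, 13 had no probe set with 1 symbol. Comp stands in both the activated fibroblast and the cartilage list.

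The number of arrays limits precision. Alternatives covered the scaling, pseudocount, filter, probe set of a gene, variance trend, arrays fitted, a replicate block and leaving out each array.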

Additional observations from a re-analysis of the deposited data

How the results depend on the processing

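Of 1665 values of single chains under the alternatives, 1490 stayed on their side of the threshold, 105 lost and 56 gained a call, and 14 reversed with a pass in at least 1 of the settings. Of the 1490, 72 changed sign without passing in either setting, and 1418 kept direction as well. Of 442 values of the named processing, receptor and basement membrane genes, 387 were kept, 43 lost their call and 12 reversed. The cause was not tested. Without scaling, differences between treated and untreated apoE-deficient hearts that passed in either setting reversed for Col15a1 (0.79), Col5a3 (1.2), Col16a1 (1.07), Col20a1 (0.89), Col8a2 (0.83), Lama2 (0.85), Lama5 (0.69), Lamb2 (0.61), P4ha1 (0.14), P4ha2 (0.25) and Serpinh1 (0.55), and Col11a2 (0.73) and Col7a1 (0.60) changed sign without passing. Those between treated and B6 hearts reversed for Col4a1 (0.43), Col4a2 (0.48), Col4a4 (0.65), Col4a5 (0.81), Col5a3 (0.27), Col6a1 (0.83), Col15a1 (0.41), Itgb1 (0.54), Lama2 (0.37), Lama5 (0.43), Lamb2 (0.39), P4ha2 (0.53) and Plod1 (0.53), and Col11a2 (0.62), Col9a1 (0.55) and Col7a1 (0.34) changed sign without passing. Col6a1 also reversed there with hybridization controls (0.26), and Col1a2 between untreated apoE-deficient and B6 hearts with the mean of probe sets (0.13). That Col1a2 mean took in a probe set below the filter, while its tested probe sets gave -0.27 and -0.23. Chains higher in treated than in untreated apoE-deficient hearts, 11 in the reported setting, were 27 unscaled and 6 each with the mean of probe sets and without the trend, and 8 to 11 when 1 array was left out. The 2 lower chains were 0 unscaled, without a filter and without the trend, and 1 with trimmed means, hybridization controls, array medians, a filter at the 60th percentile, the mean of probe sets, 2 groups alone or the replicate block, and 0 to 1 with 1 array left out. Between untreated apoE-deficient and B6 hearts the 1 higher chain was 0 unscaled, with array medians, with the mean of probe sets and without the trend (0 to 1 with 1 array left out), and the 6 lower chains were 2 with the mean of probe sets and 0 without the trend (2 to 7). Between treated and B6 hearts the 6 higher chains were 24 unscaled, 14 with hybridization controls, 2 with the mean of probe sets and 3 without the trend (3 to 8), and the 3 lower were 0 unscaled, with hybridization controls and without the trend (1 to 4). Passing probe sets, 5355, 1909 and 4066 in the order of comparisons, were 22755 and 1653 for the first (unscaled, no trend), 3045 and 10 for the second (hybridization controls, no trend), and 18758, 7614 and 626 for the third (unscaled, hybridization controls, no trend). With 1 array left out they were 2935 to 5014, 619 to 1750 and 2202 to 4105.

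With the replicate number as a block, 10 chains were higher and 1 lower between treated and untreated apoE-deficient hearts, 1 and 7 between untreated apoE-deficient and B6 hearts, and 6 and 4 between treated and B6 hearts, with 5344, 1937 and 4103 passing probe sets. Under the block Col4a6 (adjusted p = 0.0683, 4.65e-07 to 0.38 over its alternatives) and Col19a1 (0.0516, 0.025 to 0.213) no longer passed, Col4a2 gained calls against B6 in both comparisons, and no other collagen call changed. The deviations of same-numbered arrays from their group means correlated at -0.0063 (treated and untreated apoE-deficient), 0.033 (treated and B6) and 0.020 (untreated apoE-deficient and B6). These values span all tested probe sets and cannot exclude a pairing that affects some genes. The labels do not say what the replicate number stands for, so the arrays were not taken as pairs. Choosing the probe set by deposited signal changed no count. Dim chains near the floor, such as Col19a1, have little signal over background.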
